A study of Homo sapiens with 6 samples.

Results

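The genes described here encode ribosome biogenesis factors, the proteins that transcribe, modify, cut and fold ribosomal RNA and assemble it with ribosomal proteins. They are 48 of the 63086 genes in the count table, chosen by name: snoRNP proteins, polymerase I subunits, and factors of 40S and 60S assembly. All 48 symbols matched 1 row each, and all 48 passed the filter on low counts, as 14905 genes did in all. The libraries come from HEK293T, a long-established line from human embryonic kidney that carries the SV40 large T antigen. Queuine-depleted cells (0Q) were kept in DMEM with 10% dialyzed fetal bovine serum and antibiotics, and supplemented cells (100Q) were 0Q cells given queuine, so both groups share the depleted background. The labels do not settle the queuine dose, since the protocol describes 1 µM over 24 hours but the characteristics list 100 nM. Each group has 3 libraries.

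Queuine is a base that mammalian cells take from food or serum and exchange for guanine in the anticodons of tRNAs that carry aspartate, asparagine, histidine or tyrosine, where it becomes queuosine. Ribosome assembly starts in the nucleolus, where polymerase I makes a long precursor RNA. Small nucleolar RNPs (snoRNPs) guide its methylation and pseudouridylation, a large early particle called the small subunit processome matures the 40S part, and a separate set of GTPases, helicases and scaffold proteins matures the 60S part. The pathway takes up much of the transcription and protein synthesis of dividing cells, and its genes are known targets of the transcription factor MYC.

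Total estimated counts ran from 7264638 to 8035251 per library in 0Q and from 4023956 to 11398835 in 100Q. 100Q replicate 2 is the shallowest library and stands apart on the first principal component (30.9% of the variance), 100Q replicate 1 stands apart on the second (22.7%), and 100Q replicate 3 is the deepest. Among genes that mark this line, the neurofilament genes NEFM and NEFL had mean levels of 187 and 110 CPM (counts scaled to the library total) in 0Q, against 168 and 96.6 CPM in 100Q. PAX2, LHX1 and NEFH were low: PAX2 and LHX1 averaged 4.99 and 4.04 CPM in 0Q against 6.88 and 6.07 CPM in 100Q, and NEFH 0.632 against 0.546 CPM. The part of these markers in the members' results was not tested. Of 6 markers of other cell types, PTPRC and KRT5 had no counts, PECAM1, DCN and ALB had at most 3 counts in a library, and COL1A1 averaged 27.9 CPM in 0Q against 29.9 CPM in 100Q. Cells were grown in triplicate per the labels, which do not say whether these were separate cultures, and the spread behind each p-value may therefore be technical.

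No ribosome biogenesis factor passed the test between 100Q and 0Q, and most of the 48 had slightly lower values in 100Q. The log2 fold change (100Q minus 0Q) was negative for 36 members, 75% of them, where 50.6% of all tested genes were negative. The median over the members was -0.079, beside -0.0027 over all tested genes. With the edgeR quasi-likelihood test and Benjamini-Hochberg adjustment over all genes, 0 of 48 members passed an adjusted p of 0.05 (percent called over all genes 0.0134), and the lowest adjusted p of a member was 0.815. DESeq2 and limma-voom also passed 0 members (0.0738% and 0.00671% of all genes), and each found 4 members at an unadjusted p under 0.05, beside 3.77% and 5.4% of all genes. With edgeR that count was 5 members, 10.4%, beside 4.72% of all genes: 4 of them lower in 100Q (2.23% of all genes) and 1 higher (2.49%). Without 100Q replicate 3, 28 of 48 members were negative and the median was -0.028.

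**Figure D1:**
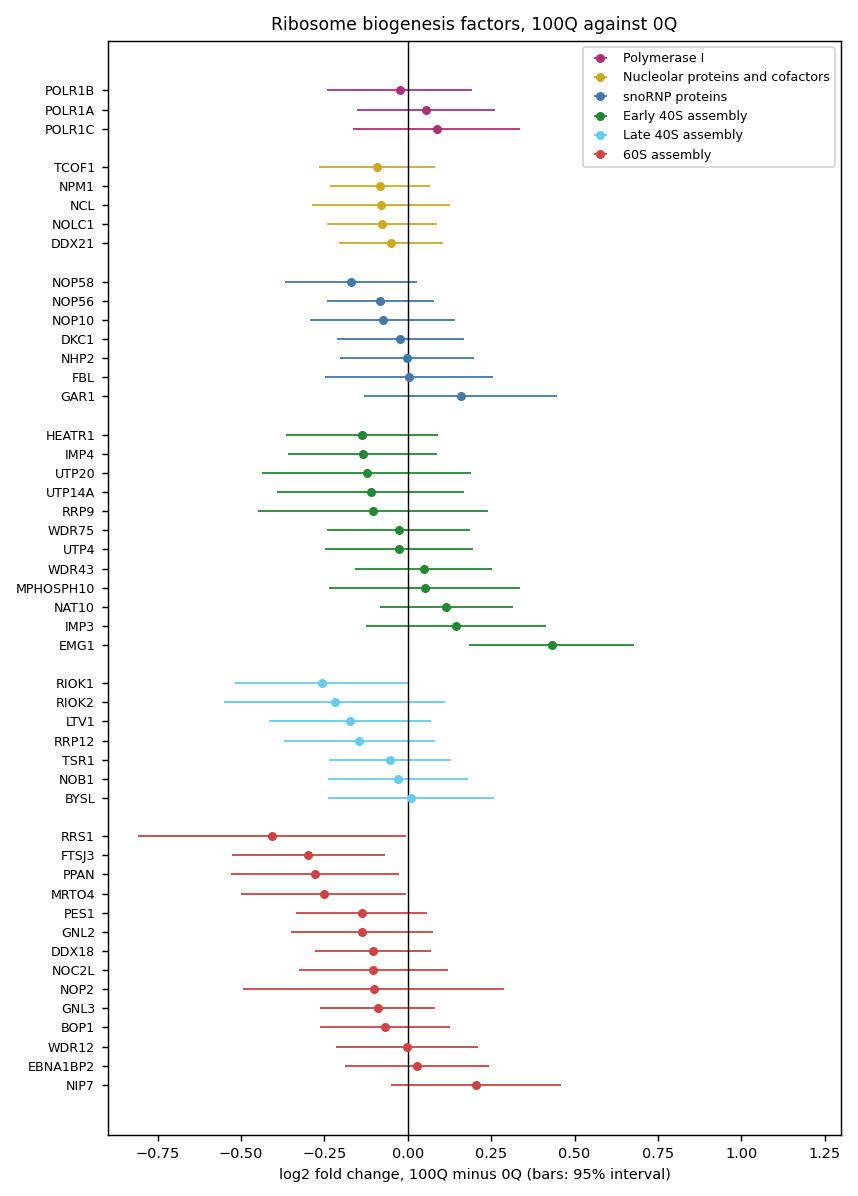
Log2 fold change (100Q minus 0Q, x axis) of each of the 48 genes with its 95% interval, in blocks by stage and sorted within a block. Points gather between -0.41 (RRS1) and 0.43 (EMG1), and 5 intervals exclude 0, those of EMG1, RRS1, FTSJ3, PPAN and MRTO4.

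The intervals bound these differences only against the spread among the 3 libraries of a group, which may be technical. For 46 of 48 members the 95% interval lay within a 1.5-fold change in either direction, as it did for 58.2% of all tested genes. The median SE was 0.10 for the members, beside 0.16 for all tested genes. Members also had a higher median level, 33.3 CPM per kilobase of transcript beside 9.12 for tested protein-coding genes. The part of level in the interval widths was not tested. The exceptions were EMG1, at 0.18 to 0.68 on the log2 scale, and RRS1, at -0.81 to -0.0063. The lowest count of a member in any library was 80, for RIOK2 in 100Q replicate 2. In bulk RNA, fewer expressing cells and less RNA per cell cannot be told apart.

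Seen library by library, the members as a group were lowest in 100Q replicate 3. Their mean log2 ratio to the 0Q level was 0.029, 0.00041 and -0.029 for the 0Q libraries in order of replicate number, against -0.0092, -0.060 and -0.11 for those of 100Q. The mean of 100Q replicate 1 lies within the 0Q range, and the other 100Q libraries lie below it. 100Q replicate 3 was the lowest of the 6 libraries for 22 of 48 members, 100Q replicate 2 for 11 and 0Q replicate 3 for 9. Summed over the members, the level was 8774, 8685 and 8450 CPM in 0Q and 8554, 8490 and 7676 CPM in 100Q, and NPM1 with NCL made up 35.2% to 37.8% of each sum.

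**Figure D2:**
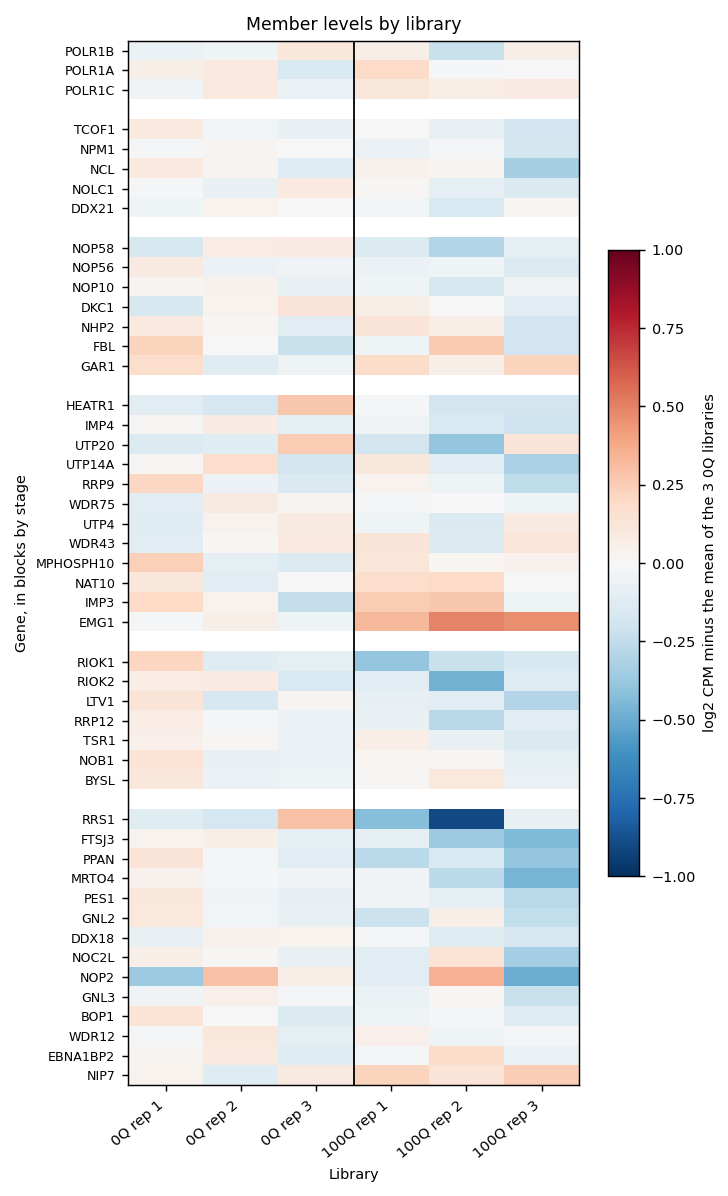
Level of each gene (rows, in blocks by stage) in each of the 6 libraries (columns) as log2 CPM minus the mean of the 3 0Q libraries, with red above and blue below. EMG1 is red in all 3 libraries of 100Q, the darkest blue cell is RRS1 in 100Q replicate 2, and the 60S block has its lowest mean, -0.22, in 100Q replicate 3.

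The stages of the pathway had different medians, all small. Listed along the pathway, the median log2 fold change was 0.054 for 3 polymerase I subunits, -0.080 for 5 abundant nucleolar proteins and cofactors, -0.022 for 7 snoRNP proteins, -0.027 for 12 early 40S factors, -0.15 for 7 late 40S factors and -0.10 for 14 factors of 60S assembly. Values were negative for 1 of 3, 5 of 5, 5 of 7, 7 of 12, 6 of 7 and 12 of 14 members in the same order. The differences between stages were not tested, and the 2 lowest medians belong to the late 40S and 60S stages. Without 100Q replicate 3 the 60S median was -0.050, the snoRNP median 0.027 and that of the nucleolar proteins -0.040. Without 100Q replicate 2 the 60S median was -0.19 and the late 40S median -0.095. In the late 40S stage the mean log2 ratio was 0.11 in 0Q replicate 1 and -0.064 to -0.047 in the other 0Q libraries.

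**Figure D3:**
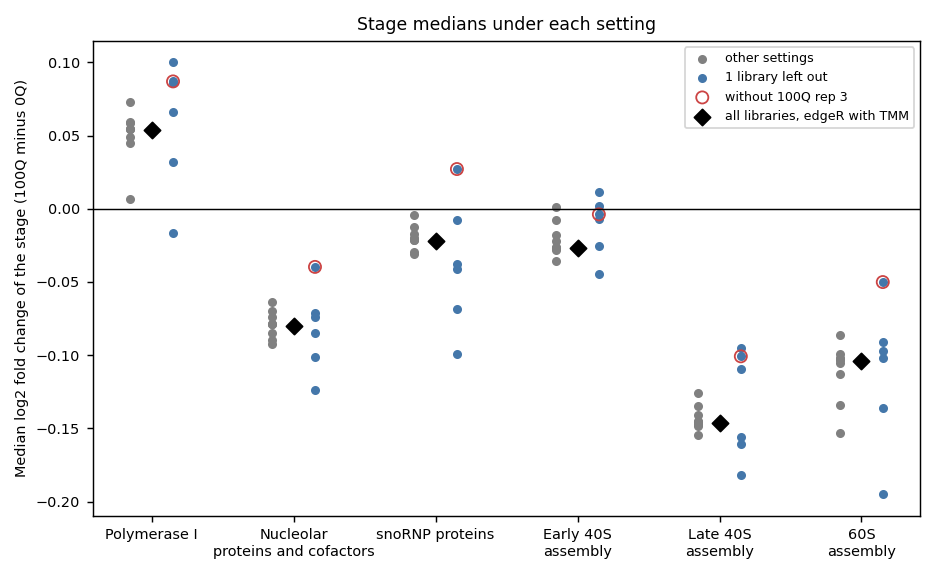
Median log2 fold change of each stage (y axis) with all libraries (black diamonds), with 1 library left out (blue, the fit without 100Q replicate 3 circled in red) and under other settings (grey). The late 40S, 60S and nucleolar protein medians are below 0 in each fit shown, from -0.18 to -0.095, from -0.19 to -0.050 and from -0.12 to -0.040, whereas those of the snoRNP, early 40S and polymerase I stages lie on both sides of 0.

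Polymerase I transcribes the ribosomal RNA genes, and its 3 subunits among the members did not differ beyond their spread. POLR1H, a further subunit, is described below. POLR1A, its largest catalytic subunit, was at 115, 118 and 99.2 CPM in 0Q and 126, 109 and 110 CPM in 100Q, so the groups overlap (log2 fold change 0.05 ± 0.10, SE; from -0.021 to 0.10 without 1 library). POLR1C, a subunit shared with polymerase III, was at 40.8, 44.7 and 40.2 CPM in 0Q and 45.2, 43.7 and 44.4 CPM in 100Q (0.09 ± 0.12), again with overlap, and had 0.13 without 0Q replicate 2 and 0.056 without 0Q replicate 3. The second-largest subunit POLR1B had -0.02 ± 0.10. Relative to transcript length, POLR1A was among the least abundant members, at 8.88 ± 0.81 CPM per kilobase in 0Q and 9.22 ± 0.77 in 100Q (SD, n = 3 per group).

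The abundant nucleolar proteins all had slightly negative log2 fold changes, from -0.09 to -0.05. NPM1 (nucleophosmin), a histone and ribosomal protein chaperone, had the highest level per length of all members, at 1464 ± 25.0 CPM per kilobase in 0Q and 1383 ± 85.3 in 100Q (SD, n = 3 per group). Its CPM were 1902, 1968 and 1929 in 0Q and 1860, 1916 and 1699 in 100Q; 100Q replicate 2 lies within the 0Q range, and 100Q replicate 3 is the lowest, without which the log2 fold change went from -0.08 to -0.033. TCOF1 (treacle), a cofactor of polymerase I transcription, was at 269, 246 and 239 CPM in 0Q and 250, 238 and 220 CPM in 100Q, with overlapping groups (-0.09 ± 0.08, SE; -0.042 without 0Q replicate 1 and -0.040 without 100Q replicate 3). NCL (nucleolin), an RNA-binding protein of the dense nucleolus, was at 1003 CPM in 100Q replicate 3 and at 1155 to 1354 CPM in the other 5 libraries. NOLC1, a chaperone of snoRNPs, had -0.08 ± 0.08, and the RNA helicase DDX21 had -0.05 ± 0.07.

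Proteins of the 2 kinds of snoRNP showed no common direction. Among the box C/D proteins, which carry out 2'-O-methylation, NOP58 was at 128, 150 and 151 CPM in 0Q and 130, 117 and 133 CPM in 100Q. Its 0Q replicate 1 falls within the range of 100Q, and the log2 fold change was -0.17 ± 0.09 (SE; edgeR adjusted p = 0.987). NOP56, its partner in the scaffold, had -0.08 ± 0.08, and the methyltransferase FBL (fibrillarin) had 0.00 ± 0.12. FBL varied most within groups among these, from 254 to 347 CPM in 0Q and from 260 to 355 CPM in 100Q. Among the H/ACA proteins, which make pseudouridine, GAR1 was at 35.9, 29.2 and 30.8 CPM in 0Q and 36.2, 33.1 and 37.1 CPM in 100Q (0.16 ± 0.14), with overlap, and the log2 fold change was 0.25 without 0Q replicate 1 and 0.095 without 0Q replicate 2. The pseudouridine synthase DKC1 (dyskerin) and the core proteins NHP2 and NOP10 had -0.02 ± 0.09, -0.00 ± 0.09 and -0.08 ± 0.10.

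Members of one kind of snoRNP differed in level far more than either of them differed between groups. For a complex of 60S assembly this held only per transcript length. Relative to transcript length, FBL exceeded NOP58 in all 6 libraries, by 2.97- to 4.81-fold in 0Q and 3.45- to 5.39-fold in 100Q. NHP2 exceeded GAR1 by 7.36- to 8.54-fold in 0Q and 5.84- to 7.78-fold in 100Q. PES1 exceeded WDR12, its partner in the PeBoW complex of 60S assembly, by 5.88- to 7.08-fold in 0Q and 5.43- to 6.26-fold in 100Q. The last ratio rests on the length used: WDR12 has a canonical transcript of 8068 bases for 423 codons, and per coding length the highest of the 3 PeBoW members exceeded the lowest by only 1.21- to 1.43-fold. The depth along a transcript is not known here, so ratios between genes are descriptions.

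Early 40S assembly takes place in the small subunit processome, and its members included the highest log2 fold change of the 48. EMG1, the enzyme that methylates a pseudouridine of 18S rRNA (chr12:6970913-6979936, plus strand, hg38), was at 38.1, 40.4 and 37.6 CPM in 0Q and 48.5, 54.5 and 53.5 CPM in 100Q. All 3 libraries of 100Q lay above all 3 of 0Q. The log2 fold change was 0.43 ± 0.12 (SE), with an edgeR adjusted p of 0.815, so it did not pass. It ran from 0.40 to 0.48 when each library was left out in turn.

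The exons of EMG1 overlap those of other gene models, and how reads there were divided was not tested. Of its exon bases 55.5% lie over exons of LPCAT3, an acyltransferase gene on the opposite strand, and whether counting used strand is not given in the sources. For LPCAT3 the counts were 275, 246 and 282 (0Q) against 174, 122 and 370 (100Q), a log2 fold change of -0.15 ± 0.14 (SE). On the same strand a longer gene model, ENSG00000290146, covers 624 of the EMG1 exon bases, with counts of 37, 100 and 59 (0Q) against 32, 22 and 88 (100Q). With its counts added to EMG1 the log2 fold change was 0.31 ± 0.12 (edgeR adjusted p = 0.988). Exons of other members also lie over genes of the opposite strand. Among these are IMP3 (31.7% of exon bases), NHP2 (28%), TSR1 (23.9%) and HEATR1 (23.1%), and the same limit holds for their levels.

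Other early 40S factors had overlapping groups. HEATR1, a long scaffold protein of the processome, was at 188, 179 and 243 CPM in 0Q and 200, 177 and 177 CPM in 100Q (log2 fold change -0.14 ± 0.11, SE). The 0Q level rests on replicate 3, without which the log2 fold change was 0.0096. UTP20, a scaffold of the same particle and the member with the lowest level per length (6.03 ± 0.96 CPM per kilobase in 0Q; SD, n = 3), was at 49.3, 49.7 and 64.5 CPM in 0Q and 47.6, 41.2 and 59.0 CPM in 100Q. It too was highest in 0Q replicate 3, and its log2 fold change of -0.12 ± 0.15 was 0.014 without that library. IMP3 and MPHOSPH10, which sit together on the U3 snoRNA with IMP4, had 0.14 ± 0.13 and 0.05 ± 0.13, while IMP4 had -0.14 ± 0.11. NAT10, the cytidine acetyltransferase of 18S rRNA, had 0.12 ± 0.09. The remaining 5, RRP9, UTP4, UTP14A, WDR43 and WDR75, are U3 and UTP proteins of the processome and ran from -0.11 to 0.05.

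Late 40S factors are grouped here by their part in the pre-40S particle, and 6 of 7 had negative log2 fold changes. In 2 of 7, RIOK1 and RRP12, the groups did not overlap with lower values in 100Q, where 5.2% of all tested genes did so. RIOK1, an atypical kinase of the last maturation steps (chr6:7389793-7418037), was at 73.4, 58.0 and 59.2 CPM in 0Q and 48.1, 54.0 and 56.5 CPM in 100Q. All 3 libraries of 100Q lay below those of 0Q, by a small margin, and the log2 fold change was -0.26 ± 0.12 (SE; edgeR adjusted p = 0.987). Without 0Q replicate 1, the highest library, it was -0.14. RRP12, an export factor of pre-ribosomes, was at 68.0, 63.9 and 61.8 CPM in 0Q and 61.2, 53.2 and 59.9 CPM in 100Q, with no overlap (-0.15 ± 0.11).

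LTV1, an assembly factor that leaves the pre-40S particle in the cytoplasm, was at 71.3, 58.6 and 66.7 CPM in 0Q and 61.8, 60.3 and 53.2 CPM in 100Q, and the groups overlap (log2 fold change -0.17 ± 0.11, SE; -0.11 without 0Q replicate 1 and -0.10 without 100Q replicate 3). The related kinase RIOK2 had -0.22 ± 0.16. The endonuclease NOB1, which makes the 3' end of 18S rRNA, had -0.03 ± 0.10, the GTPase-like TSR1 had -0.05 ± 0.09, and BYSL (bystin) had 0.01 ± 0.12. Over all members, groups did not overlap with lower values in 100Q for 3 genes, RRP12, RIOK1 and PPAN, 6.25% beside 5.2% of all tested genes. They did not overlap with higher values for EMG1 and NIP7, 4.17% beside 5.39%. These shares are near those of all genes.

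Of 14 members in the 60S stage, 4 (28.6%) had an unadjusted p under 0.05 and were lower in 100Q, beside 2.23% of all genes. Among 46 further 60S factors, described below, it was 4 (8.7%), and none of the 4 members passed the adjusted test. The edgeR unadjusted p was 0.014 for FTSJ3, 0.033 for PPAN, 0.047 for MRTO4 and 0.047 for RRS1. MRTO4 had 0.063 with DESeq2, RRS1 had 0.089 with limma-voom, and the others of the 4 were under 0.05 in each. With library size only, edgeR gave 0.058 for MRTO4 and 0.066 for RRS1, with FTSJ3 and PPAN under 0.05. Without 100Q replicate 3 the edgeR unadjusted p was 0.091 for FTSJ3, 0.14 for PPAN and 0.27 for MRTO4. For RRS1 it was 0.0058 in that fit. FTSJ3, the homologue of the yeast rRNA methyltransferase Spb1 (chr17:63819433-63830012, minus strand), was at 95.3, 97.2 and 87.4 CPM in 0Q and 87.8, 72.3 and 68.6 CPM in 100Q. Only 0Q replicate 3 and 100Q replicate 1 cross, by less than 1 CPM on this scale. The log2 fold change was -0.30 ± 0.11 (SE, edgeR adjusted p = 0.987). It was -0.41 without 100Q replicate 1 and -0.22 without 100Q replicate 3. Of the FTSJ3 exon bases 12.6% lie over exons of PSMC5 on the opposite strand. MRTO4, a homologue of the ribosomal stalk protein P0 that holds its place during assembly (chr1:19251805-19260128), was at 76.9, 74.0 and 72.9 CPM in 0Q and 73.0, 62.3 and 54.0 CPM in 100Q. Its 3 0Q libraries lay close together and those of 100Q were spread, with 100Q replicate 1 just inside the 0Q range (-0.25 ± 0.12, adjusted p = 0.987), and without 100Q replicate 3 the log2 fold change was -0.14.

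RRS1, which helps bring the 5S RNP into the pre-60S particle, had the lowest log2 fold change of the 48, at -0.41 ± 0.19 (SE; edgeR adjusted p = 0.987). It was at 34.9, 33.7 and 46.6 CPM in 0Q and 28.3, 20.3 and 36.0 CPM in 100Q. 100Q replicate 3 lies within the 0Q range, and the log2 fold change ran from -0.65 without that library to -0.25 without 0Q replicate 3 and -0.24 without 100Q replicate 2. RRS1 lies on chromosome 8 (66429014 to 66430733) and is a short gene of 365 codons.

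PPAN, a homologue of the yeast pre-60S factor Ssf1 (chr19:10106362-10112012), was at 61.1, 55.3 and 52.0 CPM in 0Q and 46.6, 50.5 and 42.8 CPM in 100Q, without overlap (log2 fold change -0.28 ± 0.12, SE; edgeR adjusted p = 0.987). Its exons overlap those of the readthrough gene PPAN-P2RY11, which covers 47.6% of its exon bases, with counts of 76, 130 and 95 (0Q) against 90, 71 and 118 (100Q). With the readthrough counts added, PPAN had -0.18 ± 0.12 (adjusted p = 0.988). NOP2, an rRNA cytosine methyltransferase, also overlaps another gene model. Its counts were 482, 845 and 688 (0Q) against 415, 440 and 714 (100Q), while ENSG00000285238, which covers 54.4% of its exon bases on the same strand, had 274, 58 and 131, then 147, 0 and 474. Scaled to library totals, the order of the 6 libraries for one of this pair was the reverse of that for the other. Summed, the pair had 756, 903 and 819 (0Q) against 562, 440 and 1188 (100Q), and the SE of the log2 fold change went from 0.18 for NOP2 alone to 0.086 for the sum, at -0.10 and -0.03.

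**Figure D4:**
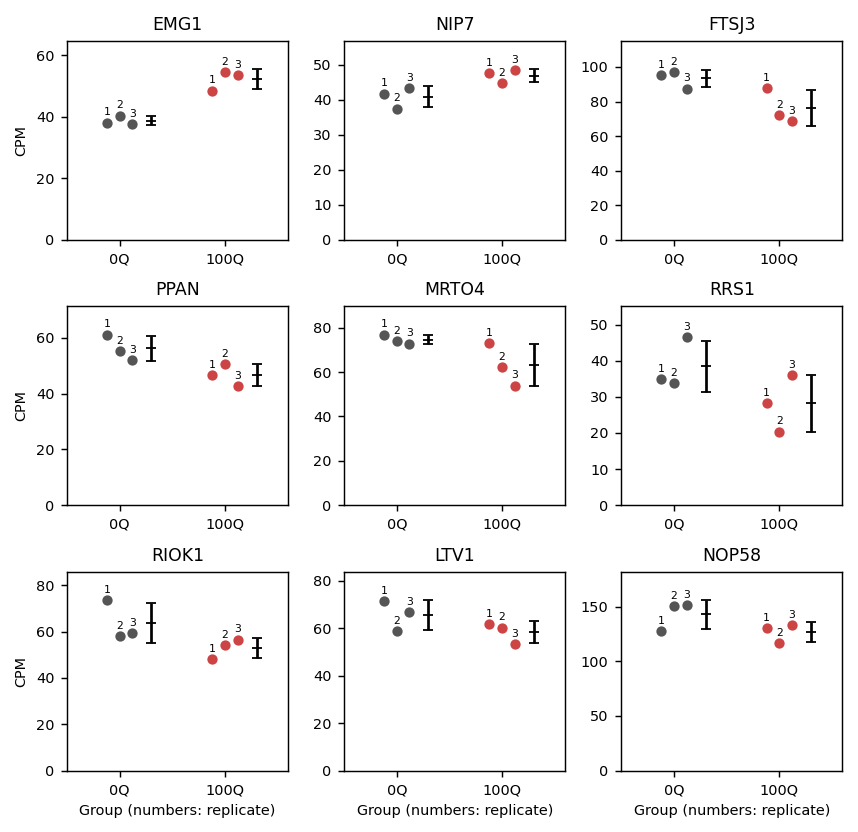
CPM (y axis, from 0) of 9 members in each library of 0Q (grey) and 100Q (red), numbered by replicate, with the mean and SD of 3 libraries as a bar. EMG1 lies between 37.6 and 40.4 CPM in 0Q and between 48.5 and 54.5 CPM in 100Q, and of the genes with lower values PPAN and RIOK1 have groups that do not overlap.

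NIP7, a small factor that binds FTSJ3, had a log2 fold change of opposite sign, but like FTSJ3 it did not pass. It was at 41.7, 37.5 and 43.3 CPM in 0Q and 47.6, 44.7 and 48.5 CPM in 100Q, with all 3 libraries of 100Q above those of 0Q (log2 fold change 0.20 ± 0.12, SE; edgeR adjusted p = 0.987). Of the NIP7 exon bases 18.4% lie over exons of COG8 on the opposite strand. The counts of COG8 were 378, 412 and 413 (0Q) against 304, 249 and 512 (100Q). How reads in the shared part were divided was not tested. The PeBoW members PES1, BOP1 and WDR12, which act as one complex, had -0.14 ± 0.09, -0.07 ± 0.09 and -0.00 ± 0.10. The nucleolar GTPases GNL2 and GNL3 had -0.14 ± 0.10 and -0.09 ± 0.08, the helicase DDX18 had -0.10 ± 0.08, NOC2L had -0.10 ± 0.11 and EBNA1BP2 had 0.03 ± 0.10.

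Further genes of the pathway, measured in the same 6 libraries, had more negative than positive values. Of 116 further genes for polymerase I transcription, snoRNP assembly, 40S and 60S assembly and the RNA exosome, 0 passed with edgeR, 80 (69%, beside 50.6% of all genes) had negative log2 fold changes and the median was -0.047. Their difference from the 48 members was not tested. The mean log2 ratio of these 116 genes to the 0Q level was -0.017, -0.053 and -0.079 in 100Q replicates 1, 2 and 3. Replicate 3 was again the lowest. An unadjusted p under 0.05 was found for 7 lower (6.03%, beside 2.23% of all genes) and 3 higher (2.59%, near the 2.49% of all genes). Those lower were NOL12 at -0.53 ± 0.14 (SE), ZNF622 at -0.34 ± 0.16, TAF1B at -0.33 ± 0.15, TSR3 at -0.29 ± 0.13, SHQ1 at -0.26 ± 0.11, NSA2 at -0.24 ± 0.10 and RSL1D1 at -0.18 ± 0.08. NOL12 is a nucleolar RNA-binding protein, ZNF622 a cytoplasmic pre-60S factor and SHQ1 a chaperone of dyskerin. Those higher were the polymerase I subunit POLR1H at 0.40 ± 0.16, the selectivity factor subunit TAF1C at 0.30 ± 0.11 and the helicase DDX51 at 0.30 ± 0.12. The further 60S factors had a median of -0.064 with 35 of 46 negative, and the further 40S factors -0.046 with 24 of 36. The snoRNP assembly factors had -0.038 with 7 of 9, and the exosome -0.027 with 7 of 13. For the further polymerase I and rDNA factors it was -0.024 with 7 of 12.

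The title of the series names codon usage, so the coding sequences were described by the codons that queuosine tRNAs read, named above, each of which ends in C or T. Members used them at a median of 13.9% of codons, beside 13.8% in all tested protein-coding genes, from 5.91% in TCOF1 to 19.9% in RIOK1. A median of 48.8% of these codons ended in C, beside 55.6%, from 23.4% in MPHOSPH10 to 86.7% in RRS1. Stretches of 40 codons show the contrast. They come from the canonical transcripts of GENCODE release 44 (hg38), lie within 1 exon each, and are the stretches of each gene with most of these codons, which are in capitals. IMP3 and MPHOSPH10 have the highest and lowest C-ending shares, and EMG1 and FTSJ3 the highest and lowest log2 fold changes, of the members other than RRS1, which is not shown.
IMP3, chr15:75640022-75640141, minus strand: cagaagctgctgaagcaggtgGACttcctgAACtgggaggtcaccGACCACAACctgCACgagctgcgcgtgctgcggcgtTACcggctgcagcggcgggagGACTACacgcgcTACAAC
MPHOSPH10, chr2:71133948-71134067, plus strand: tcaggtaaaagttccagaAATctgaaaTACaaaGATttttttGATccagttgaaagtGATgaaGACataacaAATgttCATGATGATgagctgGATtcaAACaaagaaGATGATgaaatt
EMG1, chr12:6974555-6974674, plus strand: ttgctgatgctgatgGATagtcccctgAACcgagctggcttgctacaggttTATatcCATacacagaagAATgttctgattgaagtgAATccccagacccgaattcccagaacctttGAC
FTSJ3, chr17:63822037-63822156, minus strand: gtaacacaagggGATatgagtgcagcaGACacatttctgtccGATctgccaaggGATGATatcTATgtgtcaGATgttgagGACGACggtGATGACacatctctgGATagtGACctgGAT
In IMP3 all 11 such codons of the stretch end in C, in MPHOSPH10 3 of 14, in EMG1 2 of 7 and in FTSJ3 5 of 14.

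Across the 48 members the fold change showed little relation to this codon ending. Spearman's rho between the C-ending share and the log2 fold change was -0.068 over the members and 0.139 over 12817 tested protein-coding genes. For the share of the 4 amino acids it was 0.174 and -0.091, and for the GC content of the transcript -0.078 and 0.176. Members were richer than other genes in codons for lysine (median 8.32% beside 5.70%) and for aspartate and glutamate (13.9% beside 11.9%), as nucleolar proteins often are, and rho was -0.32 for lysine and -0.31 for the acidic residues over the members, beside -0.15 and -0.081 over all. These are correlations across genes, which share libraries, depth and base composition and are not independent replicates, and they were not tested.

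**Figure D5:**
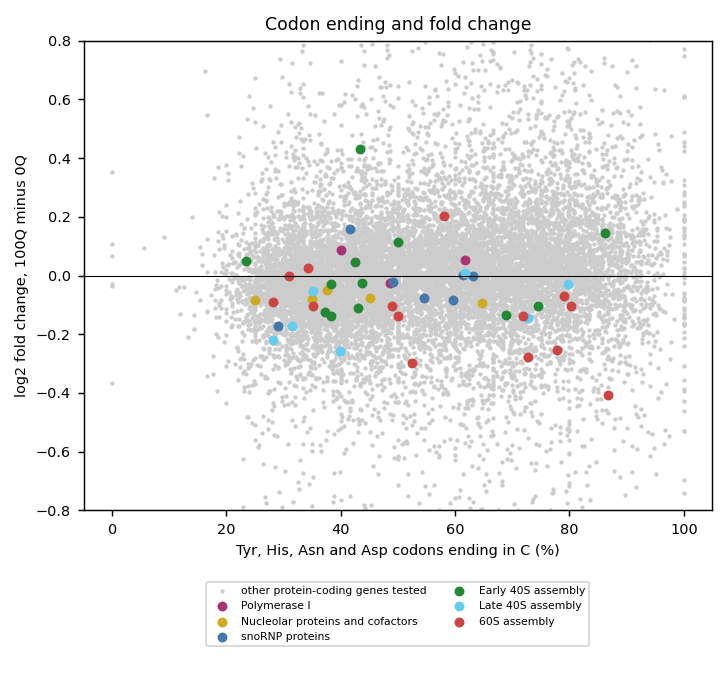
Log2 fold change (y axis, 100Q minus 0Q) against the share of tyrosine, histidine, asparagine and aspartate codons that end in C (x axis, percent), for the members by stage (colours) and other tested protein-coding genes (grey; 301 of 12769 lie beyond the y axis). Of the 48 members 36 lie below 0, at low and at high shares alike.

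A promoter feature that the choice by name did not use was found in some of the members. The palindrome CACGTG, an E-box that MYC and USF factors are known to bind and which reads the same on both strands, lies within 250 bases before to 50 bases after the annotated start of 16 of 40 members with a RefSeq promoter entry (GRCh38.p14), 40%. It lies in 10.2% of 10304 promoters of tested protein-coding genes in windows of the same length and in 21 of 100 of the further pathway genes, 21.0%. In 7 of 16 members a copy lies wholly before the start, and in 4 of them one is within 16 bases of it. These 4 are shown up to the base before the start, with the E-box in capitals.
NAT10, chr11:34105597-34105628, plus strand: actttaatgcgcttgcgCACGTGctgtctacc
UTP4, chr16:69132616-69132648, plus strand: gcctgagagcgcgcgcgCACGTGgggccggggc
UTP20, chr12:101280078-101280104, plus strand: ccgttcttttttccgtcCACGTGaccc
NOP10, chr15:34343137-34343164, minus strand: ggaaggaaattgacgaaCACGTGacgcg
Members with the E-box had a median log2 fold change of -0.10 with 11 of 16 negative, and the 24 without it had -0.040 with 18 negative, which was not tested. A match of letters does not show that a factor binds there.

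Several members also carry snoRNA genes in their introns. GENCODE places 28 snoRNA or scaRNA genes inside 9 members on the same strand, DKC1, GNL3, NCL, NOP56, NOP58, POLR1C, PPAN, TSR1 and WDR43. In these libraries they had at most 1 count each in a library and 5 counts in all, too few to compare the groups. Whether these libraries capture small RNAs was not tested.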

How the data were processed

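The authors deposited 1 table of estimated counts, with a row per Ensembl gene, a column per library and no normalization. FastQC, STAR and RSEM (versions not listed) and the builds hg38, mm39 and GRCm39 are named in the submitters' processing notes; the series text names hg38 for these libraries. The sources used here do not give the annotation, strand setting or use of molecular identifiers. Groups come from the sample titles.

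Estimated counts were rounded and tested with edgeR 4.0.16 (R 4.3.3; quasi-likelihood test, TMM, minimum count 10, all 6 libraries, no covariate), with Benjamini-Hochberg adjustment over all 14905 tested genes and a threshold of 0.05. CPM use TMM-scaled library totals. SE is the size of the log2 fold change over the square root of F. Names and gene models came from GENCODE 44, which 62541 of 63086 identifiers matched; AFG2A was matched through a RefSeq synonym. Levels per kilobase use the canonical transcript. Alternatives were RLE or no scaling, other filters (none, or a mean count of 50), a replicate block, DESeq2 1.42.0, limma-voom (limma 3.58.1), a GC and length correction and leaving out each library; adding readthrough counts was chosen after seeing the data. The fit was tested on simulated data, with changed genes of varied level above a floor. Counts were drawn at the trended spread, with no spread particular to a gene and no outlying library. The fit recovered 6% of 1.25-fold, 52% of 1.5-fold and 88% of 2-fold changes. In the simulation 121 genes passed, against 2 in the data, so the adjusted threshold was less strict there. These shares may overstate what the test detects in the data. No pair of replicates agreed within counting error (chi-square over its degrees of freedom, 5.22 to 13.2).

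Described in full are members with an unadjusted p under 0.05, the 2 smallest p of each stage and the highest and lowest level per kilobase; of the further pathway genes, up to 5 smallest p in each direction (ZNF622 and TAF1B lie outside this rule and were named after their values were seen, to complete a count; so do RRP12 and NIP7, given in full for groups that did not overlap, and NOP2, for its exon overlap). Members and lists were chosen with earlier results of these data known. One marker gene of the cell line is not reported here.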

Additional observations from a re-analysis of the deposited data

How the results depend on the processing

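No member passed under any of the 15 alternatives run, and the members' median was negative in each. The number of genes passing over all genes, 2 with all libraries, was 71 with no filter, 1 with a mean count of at least 50, 5 with the GC and length correction, 11 with DESeq2, 1 with limma-voom and 0 to 6 without 1 library. With the replicate block it was 3. Libraries of the same replicate number had deviations correlated at 0.0014, -0.020 and 0.081, and pairs of unlike number ran from -0.086 to 0.069. With so few pairs, whether replicate numbers mark a shared batch cannot be told. The SE of RRS1 went from 0.19 to 0.15 with the block. With it 5 of 48 members had an edgeR unadjusted p under 0.05, beside 774 of 14905 tested genes. Without it there were also 5, beside 704 genes. With library size only the count was 3 members, beside 692 of 14905 genes. Without 1 library it was 3 to 5 members, beside 549 of 15368 to 952 of 15288 genes. The members' median ran from -0.096 to -0.028 without 1 library, with 28 to 37 of 48 negative. Stage medians without 1 library ran from -0.099 to 0.027 for snoRNP proteins, -0.044 to 0.012 for early 40S and -0.19 to -0.050 for 60S assembly. Without 0Q replicate 3 the log2 fold change of POLR1A was -0.021, of UTP20 0.014 and of HEATR1 0.0096, each of the opposite sign to the fit of all libraries, and POLR1A had -0.017 without 100Q replicate 1; the cause was not tested. Without 1 library their values ran up to 0.10 for POLR1A, and down to -0.29 for UTP20 and -0.22 for HEATR1. At 4023956 to 11398835 counts, the median SE of a member was 0.10 on the log2 scale, which limits what could be detected for single members.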
